A study of Sus scrofa with 11 samples.

Results

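Blood clotting and complement depend on plasma proteins that are made mainly in the liver, and 54 of their genes were followed here in pig liver after hepatic irradiation. The list held clotting factors, clotting inhibitors, genes of fibrinolysis, complement components and complement regulators, and a gene was kept where the deposited table of 12505 genes carried it under a pig gene ID with that symbol. Of the 54 listed genes, 46 were measured: 15 procoagulant, 6 anticoagulant and 5 fibrinolytic genes, 15 complement components and 5 complement regulators. All 46 passed the filter on low values. FGA, PROZ, THBD, TFPI, C1R, C1S, CD55 and CD59 were not analysed here.

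RNA was measured in 11 liver libraries from wild-type pigs: 2 controls at day 0, and 3 libraries each at 20, 30 and 40 Gy of irradiation, all at day 35. No control was labelled day 35, so the effects of dose and of time cannot be told apart in any comparison with control. Values are the authors' FPKM, fragments per kilobase of transcript scaled to each library's mapped fragments, and differences are log2 differences of FPKM plus 1, each with its standard error (SE). Labels do not say whether the libraries came from separate animals, so the p-values rest on library-to-library spread alone, part of which may be technical.

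In clotting, factor XII, prekallikrein and kininogen start the contact pathway, a cascade of vitamin K-dependent proteases leads to thrombin, and thrombin turns fibrinogen into fibrin that factor XIII cross-links. Antithrombin, heparin cofactor II and activated protein C restrain thrombin and its cofactors, and plasmin, cut from plasminogen, dissolves the clot. Complement is started by the classical, lectin or alternative route, meets at C3, and ends in the pore built by C5 to C9; hepatocytes secrete most of these proteins, and several are known as acute phase proteins.

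Relations between libraries, named here by dose and replicate number, bear on every result below. 20Gy-3 and 30Gy-3 were nearly identical, with a standard deviation (SD) of the log2 ratio of 0.13 over 4806 genes, and so were 30Gy-1 and 30Gy-2, at 0.137, whereas the other 53 of the 55 pairs had SDs of 0.305 to 1.008. Across the 46 genes the median difference within these pairs was 0.026 and 0.034 on the log2 scale. Doses of 20 and 30 Gy were therefore also tested against 40 Gy with both pairs averaged and taken as 1 group of 4 libraries, a setting chosen after the data were seen and called the averaged setting below. Beyond these pairs, 20Gy-1 lay near 20Gy-3 and 30Gy-3 (SDs of 0.305 and 0.315). 20Gy-2 lay near 30Gy-1 and 30Gy-2 (0.323 and 0.352). Pairs across this split, which cuts across dose, had SDs of 0.543 to 0.642. The 4 libraries of the averaged setting may thus not be independent. The pair of 30 Gy libraries was counted as 1 in the plotted means and SDs, while the fits and log2 differences counted each library singly unless averaging is named. 40Gy-1 stood apart from the other two of its dose (SDs of 0.858 and 0.889, against 0.35 between these), and results are given without it where that changes them.

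Hepatocyte markers, the labelled cell type, were all measured (12 of 12, none at 0): their summed FPKM was 51469 to 80394 in the controls, 54598 to 70195 at 20 and 30 Gy, and 26590 to 37390 at 40 Gy. ALB, the albumin gene, made up much of these sums, and without it they were 24443 to 37847, 27335 to 34778 and 19472 to 26580. Of the 12 markers, 5 (ALB, TTR, TF, ASGR1 and ASGR2) passed the test as lower at 40 Gy than at 20 and 30 Gy and 3 (ALB, TTR and ASGR1) as lower than in control. Over all tested genes, 9.71% and 4.41% were called lower in these 2 comparisons. Others had positive differences from the lower doses that did not pass: 1.18 for ARG1 (limma adjusted p = 0.0693), 0.49 for CPS1 (0.381) and 0.09 for HPX (0.757). The rest had negative differences that did not pass: -1.19 for AHSG (0.127), -0.38 for APOA1 (0.143), -0.21 for APOH (0.441) and -0.05 for APOB (0.88). Neutrophil markers (4 of 8 measured) summed to 1.65 to 4.74 in the controls, 1.24 to 1.75 at 20 and 30 Gy and 8.42 to 18.2 at 40 Gy. Without S100A12 these sums were 1.18 to 2.12, 0.867 to 1.75 and 4.38 to 6.76. S100A8 and S100A12 were at 0 in some of the 20 and 30 Gy libraries. MPO had a negative difference at 40 Gy from the lower doses (-0.33; limma adjusted p = 0.275). Macrophage markers (12 of 12) spanned 550.3 to 1073 at 20 and 30 Gy, 935 to 1586 at 40 Gy and 914 to 1170 in control. Stellate cell markers (10 of 10) summed to 374 in 40Gy-1 against 51.8 and 42.9 in the other two, 127 to 182 at 20 and 30 Gy and 54.5 to 74.5 in control. In such bulk tissue, fewer cells of a type and less RNA per cell cannot be told apart, and the part of these markers in the results below was not tested.

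Against control, 1 of the 46 genes passed the test in the irradiated libraries as a whole. C8G, which encodes the gamma chain of complement C8, fell, against a background of 4.71% of 11644 tested genes called in either direction and 2.84% called lower. At 20 Gy the count was again 1 gene, C8G (background 4.23%, and 2.20% lower), and at 30 Gy it was 0 by limma (background 3.03%), with 4 genes, C3, C8G, F13A1 and F13B, at an unadjusted p under 0.05 (background 16.5%). At 40 Gy, 3 genes fell and none rose: C8G, KNG1 and SERPINA5, against 7.39% of all genes in either direction and 4.41% lower. The 1 gene is 2.17% of the 46 and the 3 genes are 6.52%, shares close to or below the background. The comparisons of the 3 doses with control share the same 2 control libraries.

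Without 40Gy-1 the counts against control were 2 for all irradiated libraries (background 12.3%), 3 at 20 Gy (14.3%), 1 at 30 Gy (9.62%) and 13 at 40 Gy (23%). The first 3 of these are shares of the 46 below their backgrounds. Those 13 genes were C8A, C8B, C8G, F12, KLKB1, KNG1, MASP1, MBL2, PROC, SERPINA5, SERPIND1 and VTN, all lower, and C3, higher. Without control-1 or without 40Gy-2 the 40 Gy count was 0 (backgrounds 1.93% and 3.07%), and it was 1 without control-2 (2.36%), 30Gy-1 (4.69%) or 30Gy-2 (4.53%). The irradiated count was 0 without control-1 or control-2 (backgrounds 1.38% and 0.69%). At 20 Gy the count was 0 without control-2 (1.02%), 20Gy-1 (1.44%), 20Gy-3 (2.23%), 30Gy-1 (2.47%) or 30Gy-2 (2.54%). The background fell below its value with all libraries in each of these.

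More genes separated 40 Gy from the 2 lower doses. Of 46 genes, 15 passed that test, 32.6% against a background of 21.5%: 5 were higher at 40 Gy (C3, C9, CFB, F13A1 and F13B, background 11.8%) and 10 lower (C8A, C8B, F12, KLKB1, KNG1, MASP1, PROC, SERPINA5, SERPIND1 and VTN, background 9.71%). The 5 higher genes are a share of the 46 close to their background. F13A1, counted among them, entered the test through the group where it was high, as given below. In the averaged setting 7 of the 15 passed (C3, F12, F13A1, F13B, KNG1, SERPIND1 and VTN; background 12.2%). With 1 pair averaged and the other pair left out, 0 genes passed, and the background was 1.77%. Without single libraries the count was 24 (40Gy-1; background 40%), 6 (40Gy-2; 7.33%), 7 (40Gy-3; 10.3%), 9 (20Gy-3; 14.8%) and 9 (30Gy-1; 15.1%).

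**Figure D1:**
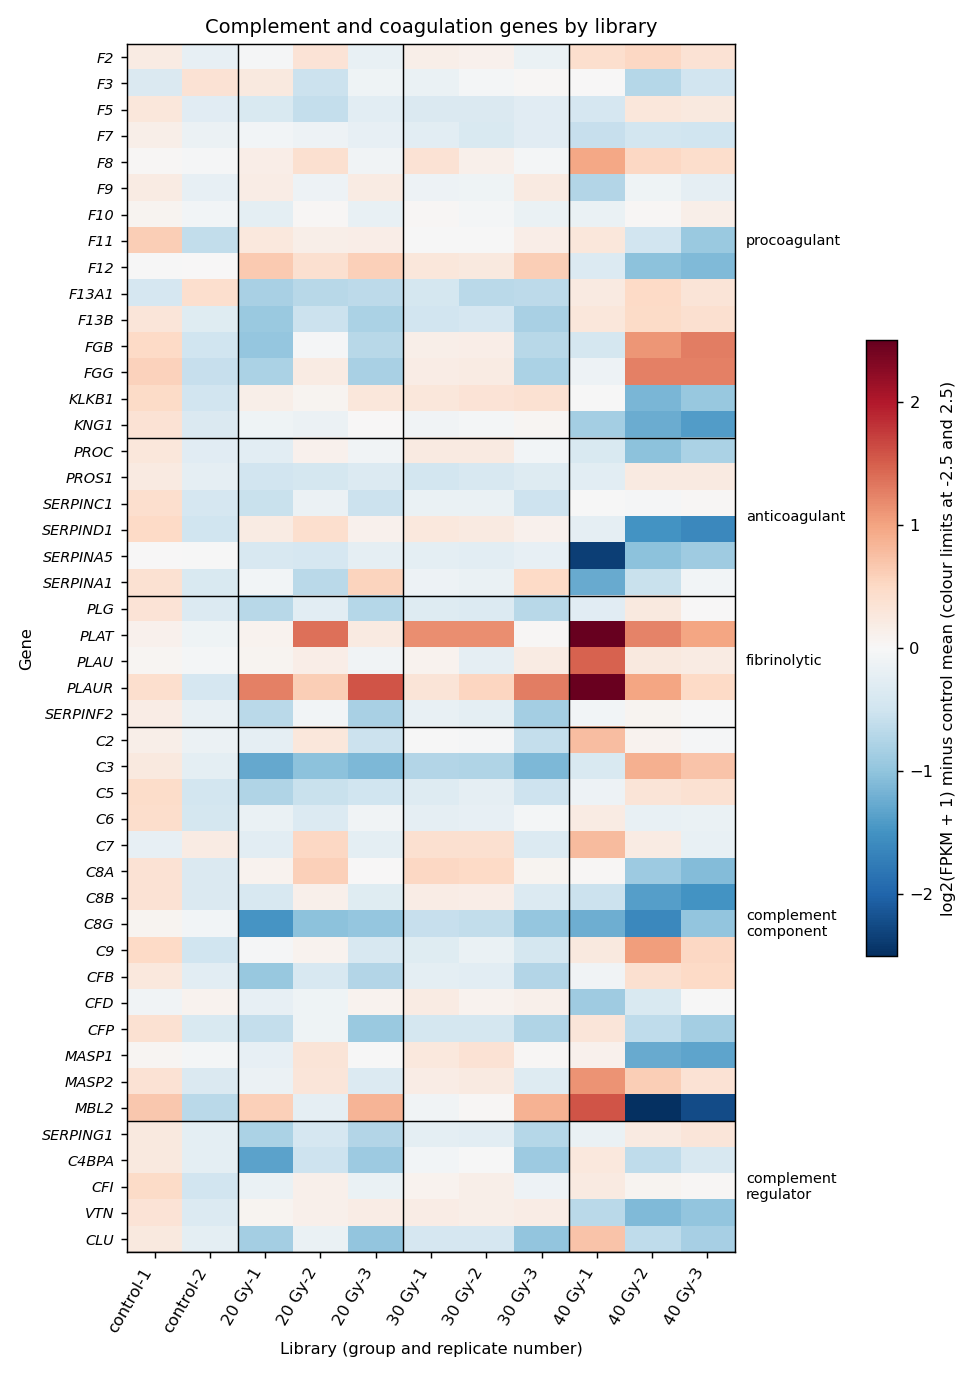
Heat map of the 46 genes (rows, by role) in the 11 libraries (columns): colour gives log2(FPKM + 1) minus the mean of the 2 controls, red above and blue below. KNG1 and VTN are blue in all 3 libraries at 40 Gy and near white at 20 and 30 Gy. SERPIND1 is blue in 40Gy-2 and 40Gy-3 but near white in 40Gy-1, which lies between the controls. C8G is blue in all 9 irradiated libraries, and 40Gy-1 is deep red for PLAT and PLAUR.

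Of the 4 contact pathway genes F12, KNG1, KLKB1 and F11, the first 3 were lower at 40 Gy than at the lower doses. F12 (ENSSSCG00000031274; chr2:80527451-80544835), the gene of factor XII, read 657 and 659 FPKM in the controls, 1037, 869 and 992 at 20 Gy, 801, 785 and 1004 at 30 Gy, and 517, 322 and 306 at 40 Gy. All 6 libraries at 20 and 30 Gy lay above both controls and all 3 at 40 Gy lay below them. The difference of 40 Gy from the lower doses was -1.29 (SE 0.205; limma adjusted p = 0.00289), while neither 20 Gy (0.55, SE 0.264, adjusted p = 0.254) nor 40 Gy (-0.83, SE 0.264, adjusted p = 0.0874) passed against control. Without 40Gy-1 the last of these passed, at -1.07 (adjusted p = 0.00431).

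KNG1 (ENSSSCG00000011802; chr13:124521276-124557384) encodes kininogen, the cofactor of the contact pathway and the precursor of bradykinin. Its FPKM was 751 and 454 in the controls, 546, 526 and 586 at 20 Gy, 549, 564 and 602 at 30 Gy, and 325, 245 and 223 at 40 Gy. Every 40 Gy library was below every other library, and the 20 and 30 Gy libraries lay between the controls. KNG1 fell at 40 Gy by 1.16 on the log2 scale against control (SE 0.259; limma adjusted p = 0.0262) and by 1.1 against the lower doses (SE 0.201; adjusted p = 0.00524). Against control the call was lost in 11 of 22 alternatives (adjusted p from 0.00449 to 0.198), among them without control-1 (0.191), without 30Gy-1 or 30Gy-2 (0.0514 and 0.0526), and without 40Gy-2 or 40Gy-3 (0.0862 and 0.0671).

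KLKB1 (chr15:47071581-47100272), the gene of plasma prekallikrein, read 68.6 and 34.8 FPKM in the controls, 54.1, 51.4 and 59.4 at 20 Gy, 59.5, 62.0 and 63.8 at 30 Gy, and 48.8, 21.6 and 24.7 at 40 Gy. It passed as lower at 40 Gy than at the lower doses (-0.95, SE 0.272; limma adjusted p = 0.0342). That call was lost in 11 of 22 alternatives, with adjusted p up to 0.253. In 7 of the 11 a single library was left out, any one of the 20, 30 or 40 Gy libraries save 20Gy-2 and 40Gy-1 (up to 0.165, without 40Gy-2). F11, the substrate of factor XIIa, did not pass (-0.50, SE 0.295, adjusted p = 0.243): it read 25.9 and 10.5 in control, 16.5 to 20.3 at 20 and 30 Gy and 20.5, 11.7 and 8.26 at 40 Gy, and it passed without 40Gy-1 (-0.83, adjusted p = 0.039).

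Both subunits of factor XIII, the enzyme that cross-links fibrin, were about 1 log2 unit higher at 40 Gy than at the lower doses. F13B, which encodes the carrier subunit, read 45.6 and 30.0 FPKM in the controls, 18.9, 25.2 and 20.9 at 20 Gy, 26.1, 27.5 and 20.8 at 30 Gy, and 45.4, 52.1 and 49.2 at 40 Gy. All 6 lower-dose libraries lay below both controls, and the 40 Gy libraries lay near or above the higher control. The difference of 40 Gy from the lower doses was 1.05 (SE 0.175; limma adjusted p = 0.00351).

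F13A1 (chr7:3751290-3900797), the gene of the catalytic subunit, was found at far lower levels: 0.584 and 1.80 FPKM in the controls, 0.201, 0.295 and 0.346 at 20 Gy, 0.558, 0.315 and 0.336 at 30 Gy, and 1.47, 1.97 and 1.63 at 40 Gy. The 40 Gy libraries were all above the 20 and 30 Gy libraries, and the controls spanned most of the range. F13A1 reached the 1 FPKM of the filter only at 40 Gy and in control-2, so it entered the test through the group where it was high. Its log2 difference between 40 Gy and the lower doses was 1 (SE 0.179; limma adjusted p = 0.00479), and with a pseudocount of 0.1 instead of 1 it was 2.05. The call was also made with no filter on low values. Of 11 tested macrophage markers, 3 passed as higher at 40 Gy than at the lower doses (background 11.8%). These were CD68 (1.51), CD163 (1.83) and CD14 (0.90), with limma adjusted p of 0.0226, 0.0319 and 0.0127. Of the 8 that did not, C1QA, C1QB, C1QC, CSF1R and TIMD4 had differences of 0.06 to 0.26 (adjusted p = 0.656 to 0.94). Those of MSR1, VSIG4 and MARCO were 1.36, 0.97 and 0.49 (adjusted p = 0.075, 0.0533 and 0.566). The catalytic subunit is known to be made by macrophages and platelets, and the part of such cells was not tested.

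Fibrinogen, the clot's building block, was among the most abundant products of the 46 genes, at 2802 to 16233 FPKM for its measured chains. FGB (chr8:74598170-74607409), the beta chain gene, read 9444 and 4731 in the controls, 3406, 6513 and 4149 at 20 Gy, 7368, 7522 and 4156 at 30 Gy, and 4958, 14372 and 16233 at 40 Gy. FGG (chr8:74553040-74562151), the gamma chain gene, read 7255 and 3292, then 2818, 5599 and 2802, then 5582, 5664 and 2829, then 4502, 11747 and 11740. 40Gy-2 and 40Gy-3 held the highest values of both genes, and 40Gy-1 lay inside the range of the lower doses.

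Neither fibrinogen gene passed between 40 Gy and the lower doses with all libraries (FGB 1, SE 0.427, adjusted p = 0.119; FGG 1.1, SE 0.428, adjusted p = 0.0905; limma), but without 40Gy-1 both passed (1.54 and 1.56, adjusted p = 0.00725 and 0.0127). Against control neither passed at 40 Gy, with 95% intervals of -0.57 to 1.87 for FGB and -0.42 to 2.03 for FGG, nor without 40Gy-1 (1.19 and 1.26; adjusted p = 0.0716 and 0.0916). The ratio of FGB to FGG stayed between 1.1 and 1.48 in the 11 libraries. Both genes lie within 1 stretch of chromosome 8.

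**Figure D2:**
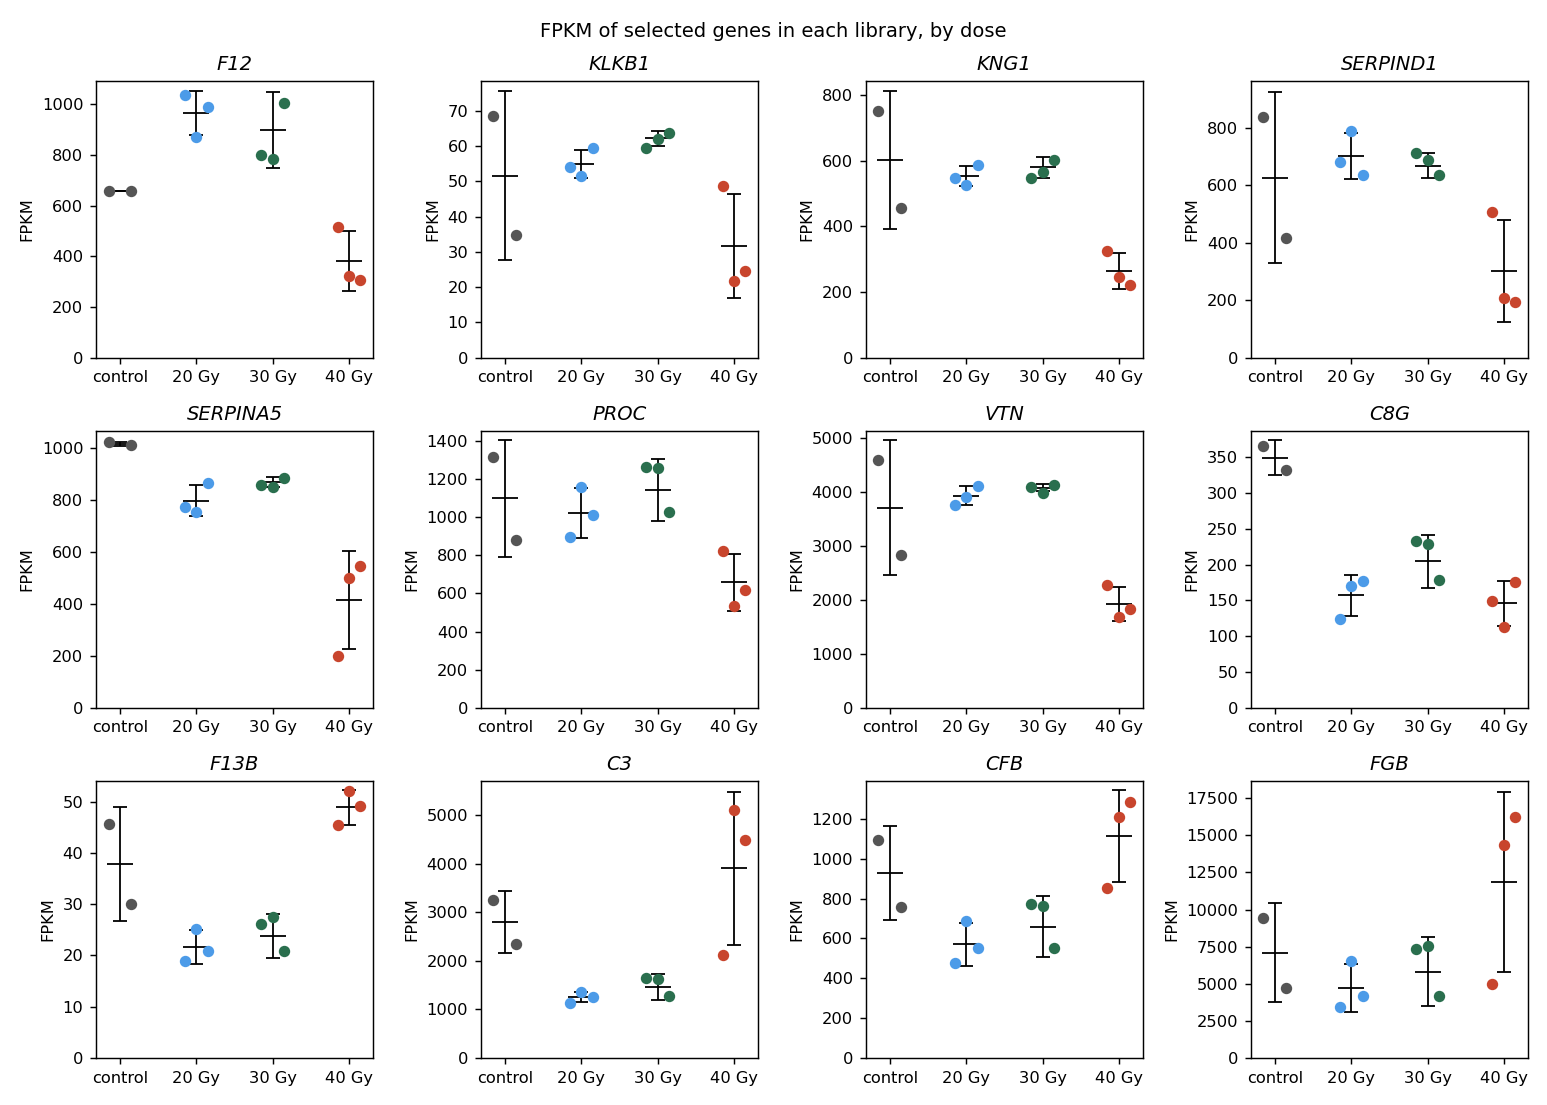
FPKM of 12 genes in each library (points, linear axes from 0) by dose, with the mean and 1 SD (n = 2 controls, 3 at 20 Gy, 2 at 30 Gy after averaging the near-identical pair, and 3 at 40 Gy). F12, KNG1, SERPIND1 and VTN sit lowest at 40 Gy, F13B, C3 and CFB dip at 20 and 30 Gy, and C8G is highest in the 2 controls.

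The remaining clotting proteases and cofactors passed in no comparison. F2 (chr2:15793257-15819151), the prothrombin gene, read 605 and 454 FPKM in the controls, 516, 665 and 463 at 20 Gy, 576, 561 and 467 at 30 Gy, and 698, 747 and 676 at 40 Gy. The 40 Gy libraries lay above all others, and the difference from the lower doses was 0.39 (SE 0.183; limma adjusted p = 0.146). F7 (chr11:78512389-78518668), the gene of the protease that tissue factor activates, read 116 and 95.7 in the controls, 101, 96.4 and 91.8 at 20 Gy, 88.0, 81.0 and 86.2 at 30 Gy, and 70.8, 76.3 and 74.7 at 40 Gy. The 40 Gy values were the lowest 3, with a difference from control of -0.51 (SE 0.173; adjusted p = 0.105).

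F8, which encodes the cofactor factor VIII and is made mainly by sinusoidal endothelial cells, read 16.4 and 15.5 FPKM in the controls, 18.0, 21.3 and 14.8 at 20 Gy, 20.8, 17.4 and 15.4 at 30 Gy, and 32.1, 23.2 and 22.0 at 40 Gy. Its difference at 40 Gy was 0.49 from the lower doses (SE 0.174; limma adjusted p = 0.0685), with all 3 libraries above the other 8, and it passed without 20Gy-2 (0.55, adjusted p = 0.0487). Endothelial markers (12 of 12) summed to 339 to 415 in control, 162 to 203 at 20 and 30 Gy and 169.6 to 294 at 40 Gy. CLEC4G held most of that spread, and without it the sums were 134 to 152, 94.6 to 133 and 116 to 149. F5, the gene of the cofactor factor V, did not pass (0.42, adjusted p = 0.153) but did without 40Gy-1 (0.64, adjusted p = 0.015).

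F9 and F10, the proteases of the tenase and prothrombinase complexes, spanned 188 to 362 and 715 to 941 FPKM. Their 95% intervals at 40 Gy against control were -0.92 to 0.22 for F9 and -0.46 to 0.46 for F10. F3, the tissue factor gene, was low everywhere, at 1.38 to 4.07. F7 and F10 are neighbours on chromosome 11, and their differences at 40 Gy from control were -0.51 and 0.

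Of the 6 measured genes listed as anticoagulant, 3 were lower at 40 Gy than at the lower doses and 3 did not pass. That list counts SERPINA5, whose product inhibits protein C, and SERPINA1 in the set. SERPIND1 (ENSSSCG00000010093; chr14:50427121-50436470) encodes heparin cofactor II, a thrombin inhibitor. It read 837 and 417 FPKM in the controls, 681, 791 and 636 at 20 Gy, 713, 687 and 637 at 30 Gy, and 507, 209 and 193 at 40 Gy. All 6 lower-dose libraries lay between the controls and above the 40 Gy libraries, and the difference was -1.33 (SE 0.324; limma adjusted p = 0.0181). The call was lost without 40Gy-2 or 40Gy-3 (adjusted p = 0.0975 and 0.0842). PI4KA overlaps this gene in the annotation and went the other way in this comparison (0.87; adjusted p = 0.0229), at 7.55 to 26.4 FPKM.

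SERPINA5 (ENSSSCG00000002481; chr7:115799414-115810825), the gene of protein C inhibitor, read 1020 and 1009 FPKM in the controls, 771, 753 and 865 at 20 Gy, 857, 850.5 and 882 at 30 Gy, and 199, 499 and 545 at 40 Gy. Each irradiated library was below both controls and each 40 Gy library was below all others. Along with C8G, it was 1 of 2 of the 46 genes whose 9 irradiated libraries all lay below both controls (background 7.86%), and no gene had all 9 above them (background 5.42%). SERPINA5 fell at 40 Gy by 1.42 against control (SE 0.374; limma adjusted p = 0.0475) and by 1.13 against the lower doses (SE 0.29; adjusted p = 0.0224), the latter -0.67 without 40Gy-1 (adjusted p = 0.00379).

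The SERPINA5 call against control was lost in 15 of 22 alternatives (adjusted p from 0.00346 to 0.248): without any one of the controls or of the 20 or 30 Gy libraries, and without 40Gy-2 (0.0685). In the averaged setting its adjusted p was 0.0793 against control and 0.0626 against the lower doses, where the range over alternatives was 0.00379 to 0.222. Without 40Gy-1, its difference over all doses from control passed too (-0.51, adjusted p = 0.0304; -0.67, adjusted p = 0.276 with all libraries).

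PROC (chr15:25043543-25054310), the protein C gene, read 1316 and 880.2 FPKM in the controls, 893, 1158 and 1012 at 20 Gy, 1263, 1256 and 1028 at 30 Gy, and 824, 532 and 619 at 40 Gy. The 40 Gy libraries were below all others, by 0.75 against the lower doses (log2 difference -0.75, SE 0.212; limma adjusted p = 0.0313). That call was lost in 11 of 22 alternatives (adjusted p from 0.00517 to 0.234), among them without 20Gy-2 or 20Gy-3 (0.0506 and 0.0613), 30Gy-1 or 30Gy-2 (0.0683 and 0.0675), and 40Gy-2 or 40Gy-3 (0.149 and 0.0986). PROS1, the gene of its cofactor protein S, did not pass: it read 137 and 100.2 in the controls, 84.3, 85.8 and 92.2 at 20 Gy, 85.5, 88.8 and 94.3 at 30 Gy, and 97.8, 137 and 137 at 40 Gy. Its difference between 40 Gy and the lower doses was 0.46 (SE 0.169; adjusted p = 0.075), and 0.62 (adjusted p = 0.0102) without 40Gy-1.

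SERPINC1 (chr9:116181988-116193100), the antithrombin gene, was the most abundant of the 6 and did not pass. It read 2513 and 1394 FPKM in the controls, 1269, 1693 and 1291 at 20 Gy, 1669, 1671 and 1302 at 30 Gy, and 1856, 1832 and 1900 at 40 Gy. The 3 libraries at 40 Gy lay close together, between the controls and above the lower doses, and the difference from control was -0.01 (SE 0.286; 95% interval -0.64 to 0.63). SERPINA1, a protease inhibitor gene, read 14.1 to 51.5. It belongs to a family of similar serpins between which reads may be split, so its level is uncertain.

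**Figure D3:**
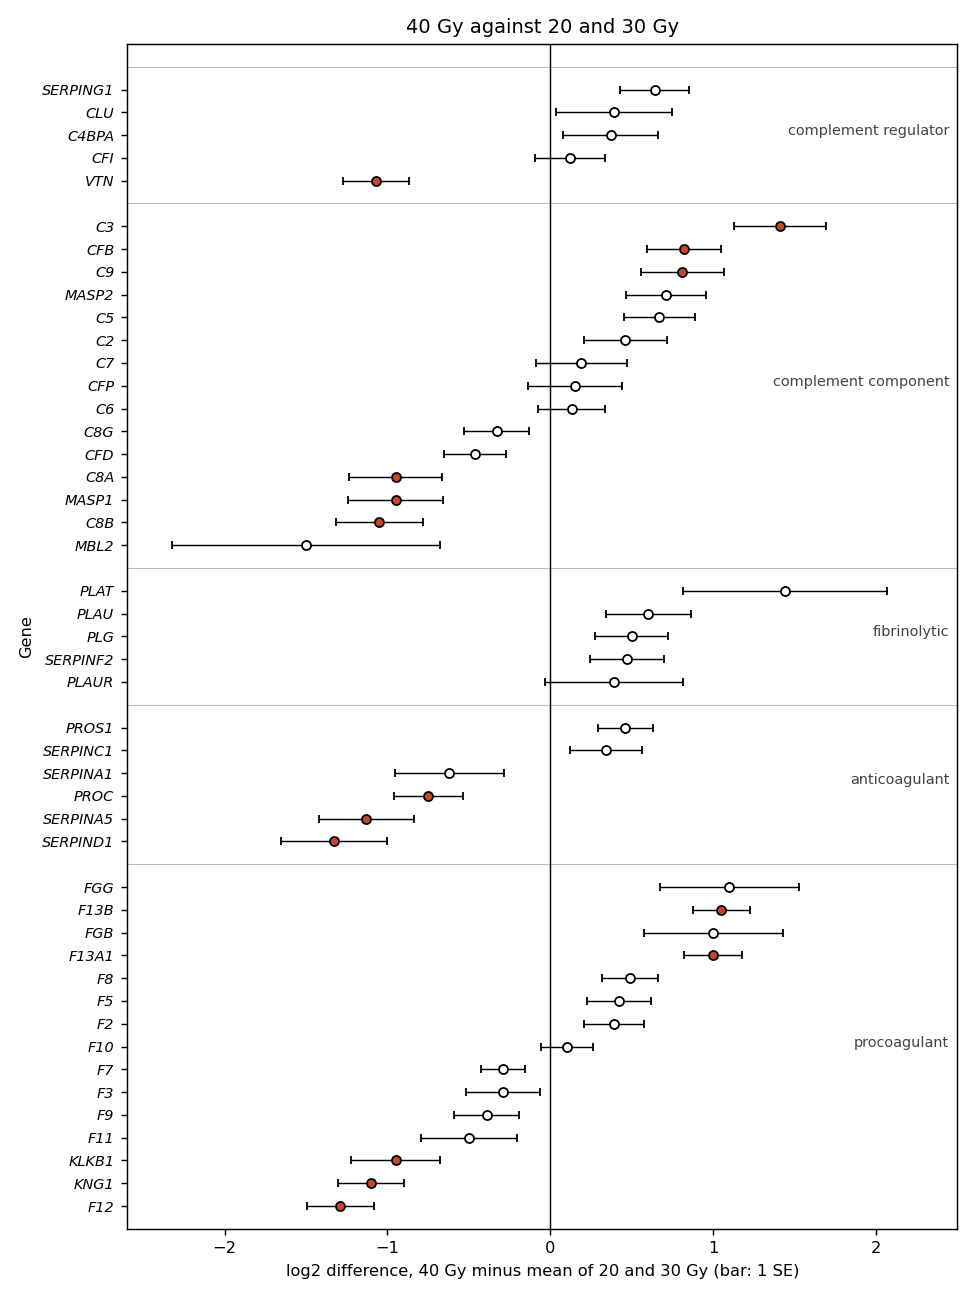
Log2 difference of each of the 46 genes between 40 Gy and the mean of 20 and 30 Gy (points) with 1 SE (bars), by role; filled points passed at an adjusted p under 0.05 (limma). The 10 filled points below 0 lie between -1.33 and -0.75 and the 5 above 0 between 0.81 and 1.41.

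No fibrinolytic gene passed in any comparison. PLG (chr1:7062399-7109521), the plasminogen gene, read 2259 and 1415 FPKM in the controls, 1109, 1486 and 1096 at 20 Gy, 1431, 1411 and 1102 at 30 Gy, and 1477, 2120 and 1812 at 40 Gy. Its difference between 40 Gy and the lower doses was 0.50 (SE 0.223; limma adjusted p = 0.132), and 0.64 (adjusted p = 0.0456) without 40Gy-1. SERPINF2, the gene of the plasmin inhibitor alpha-2-antiplasmin, read 746 and 583 in control, 368 to 631 at 20 and 30 Gy and 629, 696 and 658 at 40 Gy. PLG and SERPINF2 kept a ratio of 2.35 to 3.05 in the 11 libraries.

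The plasminogen activators and the urokinase receptor were low, and their highest values were all in 40Gy-1. PLAT, the gene of tissue plasminogen activator, read 0.612 and 0.395 FPKM in the controls, 0.600, 2.88 and 0.745 at 20 Gy, 2.37, 2.36 and 0.529 at 30 Gy, and 24.7, 2.54 and 1.98 at 40 Gy. PLAU, the urokinase gene, read 7.38 in that library and 1.60 to 2.56 in the other 10. PLAUR, the urokinase receptor gene, read 2.80 and 1.12 in the controls, 5.79, 3.34 and 7.48 at 20 Gy, 2.54, 3.13 and 5.87 at 30 Gy, and 14.7, 4.63 and 2.99 at 40 Gy.

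The log2 differences at 40 Gy from control were 2.11 for PLAT (SE 0.81; adjusted p = 0.14), 0.64 for PLAU (SE 0.336; adjusted p = 0.275) and 1.32 for PLAUR (SE 0.546; adjusted p = 0.169), by limma. Without 40Gy-1 they were 1.12, 0.22 and 0.74 (adjusted p = 0.122, 0.398 and 0.235), and from the lower doses 0.44, 0.18 and -0.19. The stellate cell, macrophage and platelet marker sums were also highest in 40Gy-1 (374, 1586 and 6.33 FPKM). The part of such cells in these values was not tested.

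**Figure D4:**
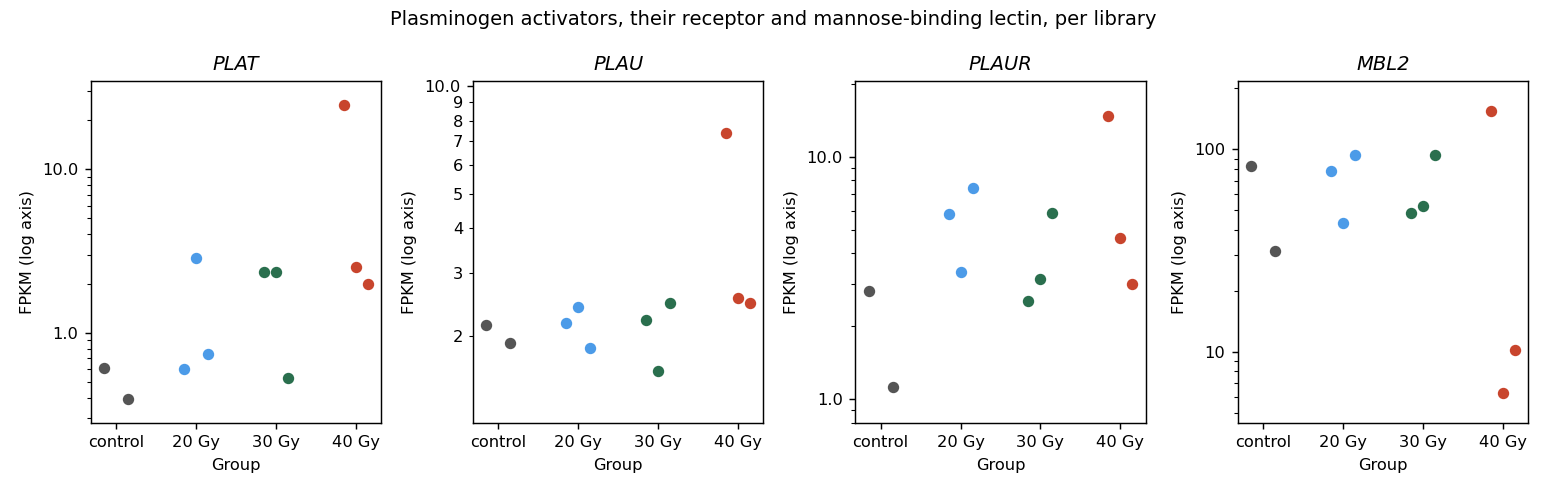
FPKM (log axes) of PLAT, PLAU, PLAUR and MBL2 in each library (points) by dose. 40Gy-1 is the highest of all 11 for each gene, at 24.7, 7.38, 14.7 and 155, and the other two 40 Gy libraries are the lowest for MBL2, at 6.24 and 10.2.

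C8G (ENSSSCG00000005840) was the 1 gene of the 46 that passed against control over all irradiated libraries, at 20 Gy and at 40 Gy. It read 366 and 332 FPKM in the controls, 124, 170.3 and 177 at 20 Gy, 232, 229 and 178 at 30 Gy, and 149, 113 and 176 at 40 Gy. All 9 irradiated libraries lay below both controls. C8G fell by 1.05 over all doses (SE 0.218; limma adjusted p = 0.0248), by 1.16 at 20 Gy (SE 0.255; adjusted p = 0.0323) and by 1.27 at 40 Gy (SE 0.255; adjusted p = 0.0169), while at 30 Gy the difference was -0.72 (SE 0.255; adjusted p = 0.182). Without control-1 or control-2 no call held (adjusted p = 0.192 and 0.158 over all doses, 0.171 and 0.132 at 20 Gy, 0.114 and 0.0736 at 40 Gy), nor did that at 40 Gy without 40Gy-2 (0.0593). At 20 Gy it was also lost without 20Gy-1 or 20Gy-3 (0.13 and 0.0631) and without 30Gy-1 or 30Gy-2 (0.061 and 0.0613).

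C8A (chr6:155464855-155530473) and C8B (chr6:155411982-155453034), the genes of the other two C8 chains, are neighbours and had another pattern. C8A read 390.3 and 238 FPKM in the controls, 326, 460.2 and 308 at 20 Gy, 434, 429.7 and 318 at 30 Gy, and 312, 162 and 144 at 40 Gy. C8B read 376 and 226, then 221, 318 and 236, then 333, 328 and 230.1, then 199, 112 and 103. Both passed as lower at 40 Gy than at the lower doses (C8A -0.95, SE 0.285, adjusted p = 0.0401; C8B -1.05, SE 0.269, adjusted p = 0.0226; limma), where C8G did not (-0.33, SE 0.198, adjusted p = 0.245).

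The C8A call was lost in 12 of 22 alternatives, among them without each 20 Gy library, without 30Gy-1 or 30Gy-2 and without 40Gy-2 or 40Gy-3 (adjusted p = 0.058 to 0.166 over these). That of C8B was lost without 30Gy-1 (0.0501), without 40Gy-2 or 40Gy-3 (0.109 and 0.101) and in the averaged setting (0.0566). C8A exceeded C8B by a ratio of 1.04 and 1.06 in the controls and of 1.30 to 1.57 in the irradiated libraries. The ratio of C8A to C8G was 1.07 and 0.718 in the controls, 1.74 to 2.70 at 20 and 30 Gy, and 2.09, 1.43 and 0.818 at 40 Gy.

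**Figure D5:**
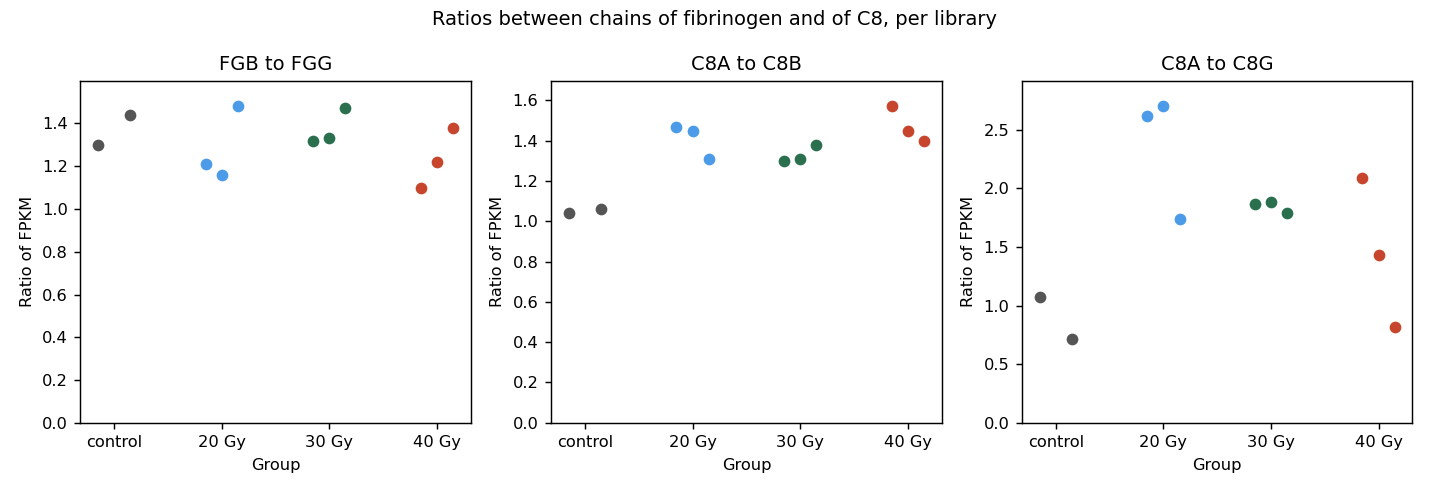
Ratios of FPKM between chains of fibrinogen (FGB to FGG) and of C8 (C8A to C8B, C8A to C8G) in each library (points, linear axes from 0) by dose. FGB to FGG stays between 1.1 and 1.48, C8A to C8B is 1.04 and 1.06 in the controls and 1.30 or more elsewhere, and C8A to C8G is 1.74 or more in all 6 libraries at 20 and 30 Gy.

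Among the other genes of the terminal pathway, 1 passed. C9 (chr16:24521318-24575939), which forms the ring of the pore, was higher at 40 Gy than at the lower doses: it read 280.5 and 141 FPKM in the controls, 196, 210.5 and 151 at 20 Gy, 162, 177 and 146 at 30 Gy, and 235, 410.4 and 285 at 40 Gy (0.81, SE 0.254; limma adjusted p = 0.0468). The 40 Gy libraries were above all 6 of the lower doses. This call was lost in 13 of 22 alternatives (adjusted p from 0.0106 to 0.317), among them without 20Gy-1 or 20Gy-3 (0.0797 and 0.0942), any library of 30 Gy (0.0721 to 0.0843), and 40Gy-2 or 40Gy-3 (0.212 and 0.108).

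C5, the precursor of an attractant peptide and of the first pore subunit, missed the threshold at 0.67 (SE 0.218; limma adjusted p = 0.0511), with 94.0, 129 and 134 FPKM at 40 Gy against 60.6 to 87.8 at the lower doses and 142 and 74.0 in control. Without either control or without 40Gy-1 it passed (adjusted p = 0.0249, 0.025 and 0.0168). C6 and C7, on chromosome 16 with C9, spanned 94.9 to 177 and 16.7 to 37.7 FPKM. Their differences between 40 Gy and the lower doses were 0.13 (95% interval -0.33 to 0.59) and 0.19 (-0.43 to 0.81).

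C3 (ENSSSCG00000013551; chr2:72431470-72471622), where the routes of complement meet, was lowest at the lower doses and highest in 40Gy-2 and 40Gy-3. It read 3257 and 2343 FPKM in the controls, 1138, 1355 and 1260 at 20 Gy, 1654, 1635 and 1266 at 30 Gy, and 2124, 5104 and 4499 at 40 Gy. All 6 lower-dose libraries lay below both controls. The difference of 40 Gy from the lower doses was 1.41 (SE 0.282; limma adjusted p = 0.008), and it was lost without 40Gy-2 (adjusted p = 0.0504). Against control, C3 did not pass at 20 Gy (-1.15, SE 0.364, adjusted p = 0.107), 30 Gy (-0.87, adjusted p = 0.264) or 40 Gy (0.40, adjusted p = 0.533), but without 40Gy-1 it passed at each dose, lower at 20 and 30 Gy (adjusted p = 0.00748 and 0.028) and higher at 40 Gy (0.79, adjusted p = 0.0316).

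CFB (chr7:24034077-24040523), the protease of the alternative route's C3 convertase, had 1094 and 760.0 FPKM in the controls, 474, 687 and 551 at 20 Gy, 775, 761 and 551 at 30 Gy, and 853, 1209 and 1284 at 40 Gy. It was higher at 40 Gy than at the lower doses (0.82, SE 0.226; limma adjusted p = 0.0296). The call was lost without 20Gy-1 or 20Gy-3 (0.0689 and 0.0603), 30Gy-3 (0.0579), or 40Gy-2 or 40Gy-3 (0.122 and 0.113). C2, the gene of the matching protease of the classical and lectin routes, ends just before CFB on chromosome 7 and did not pass (0.46, SE 0.254, adjusted p = 0.211), at 94.7 to 245.

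CFD, the gene of the protease that cuts factor B, read 43.2 and 48.8 FPKM in control, 39.5 to 53.4 at 20 and 30 Gy and 24.4, 35 and 45.8 at 40 Gy. CFP, the gene of properdin, which stabilises the same convertase, read 50.8 and 29.7 in the controls, 25.3, 36.1 and 19.9 at 20 Gy, 28.3, 28.2 and 22.7 at 30 Gy, and 47.9, 24.7 and 21.2 at 40 Gy. Neither passed in any comparison.

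In the lectin route the 2 proteases differed in sign between 40 Gy and the lower doses, a contrast between genes that was not tested itself. MASP1 (chr13:124938469-125028440) read 12.6 and 11.8 FPKM in the controls, 10.5, 15.6 and 12 at 20 Gy, 14.9, 15.9 and 12.6 at 30 Gy, and 13.3, 4.54 and 4.26 at 40 Gy. It passed as lower (-0.95, SE 0.292; limma adjusted p = 0.0429), though 40Gy-1 lay among the lower doses. This call was lost in 15 of 22 alternatives, including the loss of any single library save 40Gy-1 (adjusted p = 0.0588 to 0.194). MASP2, which cuts C4 and C2, read 60.2 and 36.5 in control, 36.8 to 58.3 at the lower doses and 103, 72.4 and 60.7 at 40 Gy, and missed the threshold (0.71, SE 0.246; adjusted p = 0.0638), which it passed without 20Gy-2 (0.80, adjusted p = 0.0431).

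MBL2, the gene of mannose-binding lectin, had the widest spread at 40 Gy: 155, 6.24 and 10.2 FPKM, against 82.6 and 31.6 in the controls, 77.8, 43.5 and 93.2 at 20 Gy and 48.3, 52.5 and 93.9 at 30 Gy. 40Gy-1 was the highest of all 11 and the other two were the lowest. With all libraries the difference from the lower doses was -1.50 (SE 0.824; limma adjusted p = 0.21), and without 40Gy-1 it was -2.88 (adjusted p = 0.000891).

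Of the complement regulators, VTN alone passed. VTN (ENSSSCG00000027801; chr12:44650532-44653916) encodes vitronectin, which binds the terminal complex. It read 4599 and 2830 FPKM in the controls, 3768, 3914 and 4114 at 20 Gy, 4099, 3992 and 4128 at 30 Gy, and 2270, 1678 and 1832 at 40 Gy. The lower doses lay between the controls and every 40 Gy library was below all others. VTN was lower at 40 Gy than at the lower doses (-1.07, SE 0.202; limma adjusted p = 0.0063), and missed the threshold against control (-0.92, SE 0.261; adjusted p = 0.0617), which it passed without 40Gy-1 (-1.04, adjusted p = 0.0108).

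SERPING1 (chr2:13324160-13338826), the gene of C1 inhibitor, which also blocks factor XIIa and kallikrein, read 2696 and 1942 FPKM in the controls, 1328, 1717 and 1372 at 20 Gy, 1929, 1893 and 1396 at 30 Gy, and 2028, 2682 and 2805 at 40 Gy. All 6 lower-dose libraries lay below both controls, and the difference of 40 Gy from them was 0.64 (SE 0.211; limma adjusted p = 0.0532), or 0.79 without 40Gy-1 (adjusted p = 0.0117). The ratio of F12 to SERPING1 was 0.244 and 0.339 in the controls, 0.415 to 0.781 at 20 and 30 Gy, and 0.255, 0.120 and 0.109 at 40 Gy.

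CLU, the gene of clusterin, read 2320 and 1637 FPKM in the controls, 1087, 1725 and 979 at 20 Gy, 1463, 1465 and 989.6 at 30 Gy, and 3214, 1249 and 1099 at 40 Gy. C4BPA, the gene of the C4-binding protein's alpha chain, read 367 and 262, then 121, 216 and 164, then 297, 307 and 164, then 372, 200.3 and 236. CFI, which cuts C3b and C4b, read 235 to 454. For CLU and C4BPA, 40Gy-1 was again the highest of all 11, and without it the difference of CLU at 40 Gy from control was -0.73 (limma adjusted p = 0.131).

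The 6 lower-dose libraries did not order by dose in several genes, which were picked after their values were seen. FGB was 6513 FPKM in 20Gy-2 and 7368 and 7522 in 30Gy-1 and 30Gy-2, and 3406, 4149 and 4156 in 20Gy-1, 20Gy-3 and 30Gy-3. PLG, C4BPA and SERPINF2 ordered these libraries the same way, and MBL2 and PLAUR the opposite way. The same split of the libraries ran through the SDs over many genes given above. Between 30 and 20 Gy, 0 of the 46 genes passed by limma (background 0%), and 0 had an unadjusted p under 0.05, as did 2.40% of all genes. Since 1 near-identical pair crosses the 2 doses and the other lies inside 30 Gy, this comparison has little independent replication.

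By set, the anticoagulant genes had the lowest median at 40 Gy and the fibrinolytic genes the highest, each resting on few and unlike genes. The median log2 difference at 40 Gy from control was 0 for the 15 procoagulant genes, -0.68 for the 6 anticoagulant genes, 0.64 for the 5 fibrinolytic genes and -0.15 for the 20 complement genes, beside 0.06 over all genes tested. At 20 Gy these medians were -0.13, -0.22, 0.05 and -0.18 (all genes -0.03), and at 30 Gy they were -0.06, -0.08, 0.02 and -0.18 (all genes -0.02). With quantile normalization the procoagulant and anticoagulant medians turned positive at 20 Gy (0.19 and 0.10) and at 30 Gy (0.08 and 0.14), the fibrinolytic ones turned to -0.03 at both, and the complement median was 0.01 at 20 Gy and 0.19 at 40 Gy. Several medians against control also changed sign with the control that was left out. In the same order they were 0.10, 0.11, 0.11 and -0.07 at 20 Gy without control-1 and -0.31, -0.41, 0 and -0.58 without control-2. At 30 Gy they were 0.21, 0.28, 0.08 and 0.09 without control-1 and -0.22, -0.31, -0.03 and -0.51 without control-2. At 40 Gy the anticoagulant median was -0.34 and -1.01, the fibrinolytic one 0.69 and 0.58, and those of the procoagulant and complement genes turned sign (0.06 and -0.06; 0.03 and -0.43). Without 40Gy-1 the fibrinolytic median at 40 Gy was 0.22. With all libraries that median was the value of PLAU, which read 7.38 FPKM in 40Gy-1 and 1.60 to 2.56 elsewhere. The fibrinolytic set also counts SERPINF2, the gene of a plasmin inhibitor. The anticoagulant median against control lay between SERPINA1 (-0.62), whose level is uncertain, and PROC (-0.73). SERPINC1 and PROS1 were at -0.01 and 0.06.

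Against the lower doses, the medians at 40 Gy were 0.10 for procoagulant, -0.69 for anticoagulant, 0.50 for fibrinolytic and 0.17 for complement genes, beside 0.07 over all genes. Without 40Gy-1 the complement median was -0.04. All 5 fibrinolytic genes were above 0 (PLAUR below it without 40Gy-1) and 4 of 6 anticoagulant genes were below it, while the procoagulant set split 8 above and 7 below and the complement set 13 and 7. The median of the fibrinolytic genes in 40Gy-1 was 1.47 above the control mean, and 0.25 and 0.20 in the other two. No test of one set against another was made.

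Libraries at 40 Gy lay wholly above those of 20 and 30 Gy for 13 of the 46 genes (28.3%; background 13%) and wholly below for 9 (19.6%; background 10.8%). These 13 genes were C3, C5, C9, CFB, F13A1, F13B, F2, F8, MASP2, PLAU, PROS1, SERPINC1 and SERPING1, and these 9 were C8B, F12, F7, KLKB1, KNG1, PROC, SERPINA5, SERPIND1 and VTN. Of the 13, F13A1 passed the filter through the group where it was high. F8, PLG, PLAU, CFD and MASP2 overlap F8A1, SLC22A3, CAMK2G, MED16 and TARDBP in the annotation. Among called genes, C8G overlaps LOC110258194, MASP1 overlaps RTP1 and LOC110256383, and F13A1 overlaps MIR9841. F5, F9, SERPINC1, PLAUR and MBL2 overlap unnamed loci, and reads of all such pairs may be mixed.

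Of 18 tested genes from a list of further coagulation and fibrinolysis genes, 3 were higher and 1 lower at 40 Gy than at the lower doses, where the background in either direction was 21.5%. The lower one was HRG (chr13:124505305-124516387), a plasma protein that binds heparin and plasminogen and whose gene neighbours KNG1: it read 1566 and 402 FPKM in the controls, 3073 to 4268 at 20 and 30 Gy and 893, 155 and 110.3 at 40 Gy (-3.81, SE 0.614; limma adjusted p = 0.00312). The higher ones were A2M (1.93, SE 0.368; adjusted p = 0.0064), CPN2 (1.32, SE 0.333; adjusted p = 0.021) and BDKRB2 (1.07, SE 0.247; adjusted p = 0.015), which encode a broad protease inhibitor, a carboxypeptidase N subunit that protects its partner in the removal of kinin ends, and a bradykinin receptor. BDKRB2 was at 2.27 FPKM or lower in every library. It reached the 1 FPKM of the filter only in 40Gy-2 and 40Gy-3, so it entered the test through the group where it was high.

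Against control, A2M rose at 40 Gy (2.10; limma adjusted p = 0.0274), and MCFD2, whose product helps carry factors V and VIII out of the endoplasmic reticulum, fell over all doses (-0.75; adjusted p = 0.0383) and at 40 Gy (-0.83; adjusted p = 0.0383). In the vitamin K and propeptide-processing list 1 of 4 tested genes was higher at 40 Gy than at the lower doses (PCSK5, 0.62; adjusted p = 0.0226). Among 15 tested further complement genes it was FCN2, a lectin-route recognition gene (1.93; adjusted p = 0.029). Among 14 transcription factors of hepatocytes it was STAT3, a factor of the acute phase response (1.28; adjusted p = 0.0334), at 70.8, 262 and 239 FPKM at 40 Gy, 57.7 to 78.9 at the lower doses and 139 and 111 in control. No other gene of these 4 lists passed in any of the 6 comparisons. The background called higher at 40 Gy than at the lower doses was 11.8%. PCSK5 reached the 1 FPKM of the filter only at 40 Gy and in control-1, so it too entered the test through the group where it was high.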

How the data were processed

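The authors deposited 1 table of FPKM (12505 genes by 11 libraries). Per the labels' protocols, total RNA was extracted from liver with Trizol, made into TruSeq RNA libraries and sequenced as paired-end reads of 150 bp on an Illumina HiSeq instrument. The submitters' processing notes name HISAT2, Cufflinks and HTSeq and the builds Sscrofa11.1 and mm10, with no role; no source used here gives filters or strand handling.

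Gene IDs were paired with symbols for 10561 rows, and coordinates come from a RefSeq gene table of Sscrofa11.1, matched by symbol; IDs of genes on unplaced scaffolds get no coordinates, and C4BPA found no match. No sequences were used. FPKM divides by each library's total, and the deposited FPKM summed to 520839 to 949840 per library. A search for whole-read steps found none (the fullest step held 0.636 to 1.498% of low genes), so depth is unknown and no counting interval is given. In the 11 libraries, 10236 to 10866 genes reached 1 FPKM.

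Genes at 1 FPKM or more in at least 2 libraries (11644) were fitted as log2(FPKM + 1) with 4 group means over all 11 libraries (7 residual degrees of freedom) in limma 3.58.1 (R 4.3.3) with a mean-variance trend. Calls are two-sided at a Benjamini-Hochberg adjusted p under 0.05 over all tested genes; 95% intervals are unadjusted. Such log2 differences understate changes of low genes. Comparisons numbered 6: irradiated against control, each dose against control, 40 Gy against the mean of 20 and 30 Gy, and 30 against 20 Gy. Alternatives changed the pseudocount, filter, scaling, replicate block and libraries entered.

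Genes and lists were chosen with earlier results of these data known. Values in every library are given for genes called in any comparison, the 3 of each role with the largest irradiated difference, and FGB, FGG, F2, SERPINC1, PLG, C3 and C9; a few others were added. Platelet markers (5 of 11 in the table, 2 tested) summed to 2.29 to 6.33 FPKM, bile duct markers (5 of 7, 4 tested) to 16.2 to 61.2, and no mesothelial marker (0 of 6) was in the table; none of the tested ones passed.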

Additional observations from a re-analysis of the deposited data

Results flagged for a closer look

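F12, the gene of factor XII, differed between dose levels. Every library at 20 and 30 Gy lay above both controls and every library at 40 Gy lay below both. The difference between 40 Gy and the mean of 20 and 30 Gy was -1.29 on the log2 scale (limma adjusted p = 0.00289; lower in 3 of 3 libraries). With both near-identical pairs averaged it was -1.31 (adjusted p = 0.0114), and over 22 alternatives the difference ranged from -1.53 to -1.15 and the adjusted p from 0.000114 to 0.0998. The call was lost in 1 of these, which omitted both 20Gy-3 and 30Gy-3 and took the mean of 30Gy-1 and 30Gy-2.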

How the results depend on the processing

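Each of the 6 counts was recomputed under up to 22 alternatives, and no result turned its direction past the threshold. Of the single-gene values, 5398 kept their side of the threshold or moved by less than the spread, 135 lost a call, 39 gained one and 242 moved by more than 1 SD; 488 of the set medians held and 20 moved. Leaving out 1 library at a time gave 0 to 2 genes for irradiated against control (1 with all; background 0.69 to 12.3% of all genes), 0 to 3 at 20 Gy (1; 1.02 to 14.3%), 0 to 1 at 30 Gy (0; 0.647 to 9.62%), 0 to 13 at 40 Gy (3; 1.93 to 23%), 6 to 24 for 40 Gy against the lower doses (15; 7.33 to 40%) and 0 for 30 against 20 Gy (0 to 0.0259%).

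Leaving out 20Gy-3 and 30Gy-3 gave 0 genes for irradiated (background 2.53%), 0 at 20 Gy (1.8%) and 1 at 40 Gy (4.81%) against control. It gave 7 for 40 Gy against the lower doses (10.3%). Averaging 30Gy-1 and 30Gy-2 as well gave 0 in each of these comparisons (backgrounds 0.368 to 1.77%). In both settings each of these backgrounds lay below its value with all libraries. Averaging 30Gy-1 and 30Gy-2 alone gave 0 at 20 Gy (background 2.54%) and 1 at 40 Gy (4.72%). Averaging both pairs with 20 and 30 Gy as 1 group was chosen after seeing the data. It gave 1 at 40 Gy (background 4.85%) and 7 against the lower doses (12.2%). Fitting only the groups compared gave 2 at 20 Gy (background 5.37%) and 0 at 40 Gy (0.44%). Quantile normalization gave 1 at 40 Gy (6.42%). The cause of these changes was not tested.

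Same replicate numbers did not mark similar libraries throughout: of 15 same-number pairs, 7 had deviations correlated above 0.1 (-0.616 to 0.645). Deviations of the controls mirror each other, so pairs with them are not independent. A pairing by number is thus neither shown nor excluded. With a replicate block the counts were 0 for irradiated (background 3.78%) and 0 at 20 Gy (3.43%). They were 3 at 40 Gy (6.91%) and 16 against the lower doses (21.9%). Depth is unknown, so what it limits cannot be stated.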
